A study of Mus musculus with 16 samples.

Results

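The genes described here are 10 genes by which cells take up and bind fatty acids, followed in differentiated mouse brown adipocytes that did or did not overexpress the long noncoding RNA *Gm15551* and were or were not stimulated with isoproterenol. They were chosen by symbol from the gene table, which holds 54347 genes. The group has the fatty acid binding proteins *Fabp4*, *Fabp5* and *Fabp3*, the uptake proteins *Cd36*, *Slc27a1* and *Slc27a4*, lipoprotein lipase (*Lpl*) with its inhibitor *Angptl4* and its anchor *Gpihbp1*, and the lipoprotein receptor *Vldlr*. All 10 had a row in the table, 7 of them had enough counts to be tested, and *Fabp3*, *Gpihbp1* and *Vldlr* did not.

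The cells were wt1-SAM, a single immortalized brown preadipocyte line with a stable CRISPRa SAM system, in which a dead Cas9 and guide-bound activators raise transcription at the site a guide RNA points to. In all groups differentiation was induced with 0.5 µM rosiglitazone, 850 nM insulin, T3, dexamethasone, indomethacin and IBMX, and rosiglitazone, an agonist of the nuclear receptor PPARγ, stayed in the medium. The reverse transfection on day 4 used 250 ng of plasmid, either the empty sgRNA vector or pSgRNA-MS2-2+7, a pair of vectors with guides to *Gm15551*, and cells were harvested on day 7 after 24 h with or without 1 µM of the β-adrenergic agonist isoproterenol. The 4 groups by plasmid and treatment each had replicates 3, 4, 5 and 6 (n = 4), which gave 16 libraries of polyadenylated RNA. Nothing in the labels says that the replicates were separate cultures, so p-values measure the spread between these samples, which may be technical.

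Adipocytes draw fatty acids from circulating triglyceride and from albumin. *Lpl* encodes the secreted lipase that frees fatty acids from lipoprotein triglyceride, GPIHBP1 carries the enzyme across the capillary endothelium and holds it there, and ANGPTL4 inactivates it. CD36 takes up long-chain fatty acids at the plasma membrane, the transport proteins encoded by *Slc27a1* (FATP1) and *Slc27a4* (FATP4) also convert them to acyl-CoA, and the small FABP proteins bind them in the cytosol. *Fabp4*, *Cd36*, *Lpl* and *Angptl4* are known target genes of PPARγ. Brown adipocytes burn fatty acids for heat after β-adrenergic stimulation.

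The total count of a library lay between 9053521 and 16546187. One ribosomal RNA gene took 19.7% to 51.8% of the counts with the empty vector and 11.7% to 28.7% with the sgRNA plasmids, and its share was higher with the empty vector in 8 of 8 pairs of libraries with the same replicate number and treatment. The targeted gene *Gm15551* had 0 to 18 counts in the empty vector libraries and 13 to 56 in the sgRNA libraries, higher in CPM in 8 of 8 pairs. Adipocyte markers were high throughout, with *Adipoq* between 249 and 1019 CPM (counts per 1e+06, scaled by TMM throughout). Of the brown adipocyte markers, *Elovl3* lay between 158 and 443 CPM, *Ucp1* between 0 and 15.5 CPM, and *Dio2* had 1 count in all libraries together.

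The 2 abundant binding proteins lie near each other on chromosome 3 and are similar in sequence, and their sequences are shown to tell how far reads of one could be taken for the other. *Fabp4* lies at chr3:10204088-10208576 on the minus strand and *Fabp5* at chr3:10012548-10016607 on the plus strand (GRCm38). The most similar 60 bases of their coding sequences, bases 55 to 114 of the 399 of *Fabp4* and bases 61 to 120 of the 408 of *Fabp5*, are shown 5′ to 3′ from a GENCODE transcript set of the same build, with the bases that are identical in both in capitals.
Fabp4: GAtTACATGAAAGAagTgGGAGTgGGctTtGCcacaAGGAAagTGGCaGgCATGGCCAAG
Fabp5: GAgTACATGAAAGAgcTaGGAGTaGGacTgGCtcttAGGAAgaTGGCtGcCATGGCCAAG
In this stretch 44 of 60 bases (73.3%) were identical, and the longest run of bases found in both whole coding sequences was 12. No 50-base window, the length of a read, was shared between the transcripts of *Fabp4* and those of any other gene. Of the *Fabp5* windows 5.48% also occurred in other genes, above all the pseudogenes *Gm6166* and *Gm14328*, which had 45 and 22 counts in all libraries together against 276709 for *Fabp5*. The share was 37.3% for *Fabp3*, 1.43% for *Slc27a1*, 1.4% for *Lpl* and 0 for the other members. Exons of *Fabp3* also overlap *Zcchc17* and *Gm10570* on the opposite strand, and the use of strand in counting was not stated, so its values are uncertain.

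*Fabp4* stood far above the other members. In the unstimulated empty vector cells its level per transcript length was 17998 ± 3999 CPM per kb (mean ± SD, n = 4 for each value in this paragraph), which was rank 3 of 53307 genes, and it took 2.19% of all counts outside the ribosomal RNA gene. *Fabp5* followed with 1632 ± 329 CPM per kb (rank 30), *Lpl* with 959 ± 190 CPM per kb (rank 48) and *Cd36* with 582 ± 34.2 CPM per kb (rank 109). The inhibitor *Angptl4* had 60.6 ± 8.12 CPM per kb (rank 922). The transport proteins were lower again, *Slc27a1* with 13.7 ± 5.07 CPM per kb (rank 3406) and *Slc27a4* with 11.5 ± 1.87 CPM per kb (rank 3905). *Fabp3*, *Vldlr* and *Gpihbp1* had 0.231 ± 0.230, 0.0439 ± 0.0494 and 0.0393 ± 0.0787 CPM per kb. In this order the ranges of neighbours over the 4 libraries overlapped for *Slc27a1* and *Slc27a4* and among the last 3 genes, and for no other neighbours. After stimulation *Slc27a4* stood above *Slc27a1* with both plasmids, at 9.96 ± 2.84 against 6.01 ± 1.38 CPM per kb with the empty vector, where the ranges did not overlap, and at 9.56 ± 2.09 against 6.44 ± 1.52 CPM per kb with the sgRNA plasmids, where they did.

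**Figure D1:**
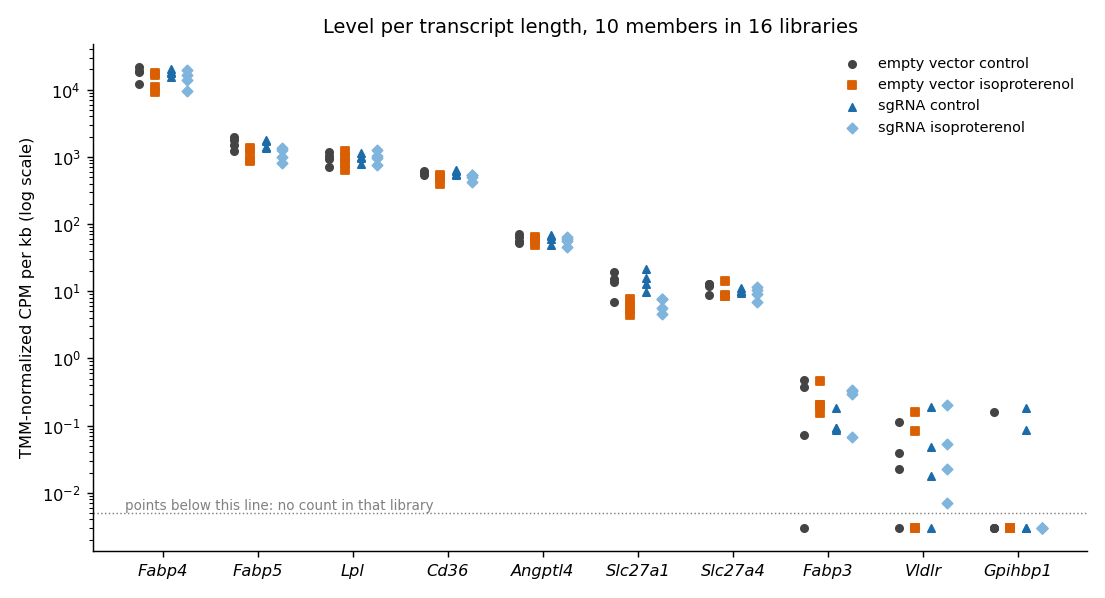
Level of each of the 10 genes in CPM per kb of transcript (log scale), 1 point per library, by plasmid and treatment. *Fabp4* lies above every other gene in each group, and *Fabp3*, *Gpihbp1* and *Vldlr* lie below the 7 tested genes.

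With isoproterenol the binding protein *Fabp5* and the transport protein *Slc27a1* fell, averaged over both plasmids, and none of the 7 tested members rose. *Slc27a1* dropped to 43.4% of its control level and *Fabp5* to 68.4%. A gene was called when its Benjamini-Hochberg adjusted p over 13150 genes, from the quasi-likelihood test of edgeR, was under 0.05 and its absolute log2 fold change over 0.5. Of all genes tested 2.65% were called, 1.32% as lower. By role, 1 of the 2 tested binding proteins, 1 of the 3 uptake proteins and 0 of the 2 tested lipase genes were called lower. The median log2 fold change of the 7 tested members was -0.25, against 0.0047 over all genes tested, and 3 of the 7 had an unadjusted p under 0.05, as had 17.7% of all genes. Libraries with the same replicate number deviated together, and a fit with these numbers as a block called 5.7% of all genes, more than 1.5 times as many, while the members called were again *Fabp5* and *Slc27a1*.

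**Figure D2:**
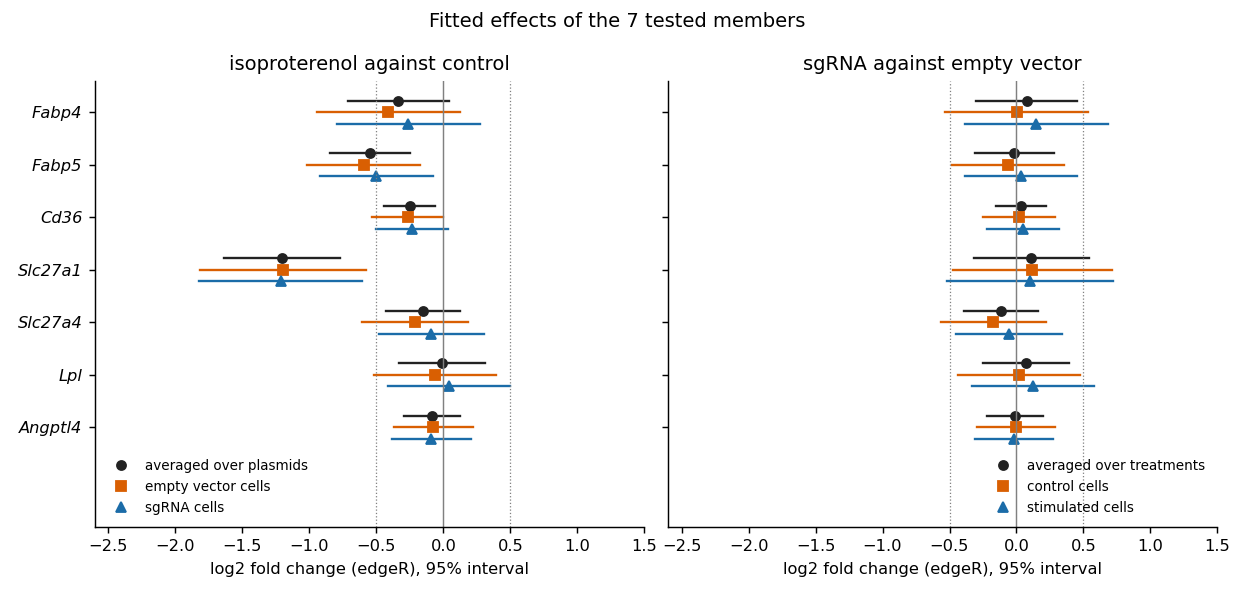
Fitted log2 fold changes of the 7 tested members with 95% intervals, from the fit without the block, for isoproterenol against control (averaged and with each plasmid) and for sgRNA against empty vector (averaged and with each treatment). With isoproterenol the intervals of *Slc27a1* and *Fabp5* lie below 0 in all 3 contrasts and that of *Cd36* in the average, and for the sgRNA plasmids the interval of each member includes 0.

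Among the binding proteins, *Fabp5* was lower after stimulation in 8 of 8 pairs of libraries with the same replicate number and plasmid. With the empty vector it had 1973, 1755, 1493 and 1223 CPM in replicates 3, 4, 5 and 6 of the control cells and 1321, 1216, 881 and 850 CPM in the stimulated cells. With the sgRNA plasmids it had 1766, 1692, 1391 and 1321 CPM in control cells and 1241, 1331, 988 and 803 CPM in stimulated cells. Within each plasmid the ranges of control and stimulated libraries overlapped, while each stimulated library lay below its own control. Averaged over plasmids *Fabp5* fell by 0.55 on the log2 scale (SE 0.140, 95% interval -0.84 to -0.25, 1.46-fold, edgeR adjusted p = 0.0360). Without the block this call was lost in 12 of 20 runs that left out 1 library or 1 replicate number, with log2 fold changes from -0.59 to -0.49 in the 12 and adjusted p from 0.0178 to 0.168 over the 20 runs. It was lost without replicate 3 (adjusted p = 0.168), replicate 4 (0.138) or replicate 5 (0.144), and without any of 9 single libraries, namely the control library of replicates 3, 4 or 5 with either plasmid, the stimulated library of replicate 6 with either plasmid, and the stimulated sgRNA library of replicate 5 (0.0510 to 0.0805). With the block *Fabp5* fell by 0.56 (adjusted p = 2.18e-06), and it was called in all 20 runs.

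*Fabp4*, the main binding protein of fat cells, was also lower after stimulation in 8 of 8 pairs. With the empty vector it had 17298, 19506, 16624 and 11078 CPM in replicates 3, 4, 5 and 6 of the control cells and 14873, 15647, 9808 and 8215 CPM in the stimulated cells. With the sgRNA plasmids it had 16547, 18229, 15791 and 13966 CPM in control cells and 15068, 17548, 12644 and 8558 CPM in stimulated cells. The ranges of control and stimulated libraries overlapped widely, since replicates 3 and 4 were high and replicate 6 low in each group. The fitted log2 fold change was -0.34 (SE 0.178, 95% interval -0.71 to 0.04, edgeR adjusted p = 0.351) and did not pass the test. With the block it was -0.37 (adjusted p = 0.00388), which passed the p-value threshold and not the size bound, as 21.3% of all genes tested had an adjusted p under 0.05 at any size in that fit.

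Since both binding proteins were read in the same libraries, their ratio needs no scaling between libraries. There were 9.96 *Fabp4* counts for each *Fabp5* count in control and 11.2 in stimulated empty vector cells, and 10.5 and 12.2 in the sgRNA cells (geometric means). The log2 ratio of *Fabp5* to *Fabp4* differed by -0.19 ± 0.147 with isoproterenol (mean ± SD of 8 paired differences), lower in 8 of 8 pairs (exact two-sided sign-flip permutation test, p = 0.0078, the smallest that 8 pairs can give; 0.0469 after adjustment over 6 ratio tests). The sign-flip test treats the pairs of both plasmids as separate although they share replicate numbers; with the differences averaged within each number it gave p = 0.125, the smallest that 4 numbers can give (exact adjusted p = 0.375), lower in 4 of 4 numbers, so that test could not pass the threshold. An exact permutation test of the libraries that ignored the pairing gave an adjusted p of 0.174. Between plasmids the ratio differed by -0.10 ± 0.0905, lower with the sgRNA plasmids in 7 of 8 pairs, and did not pass (exact adjusted p = 0.0625). *Fabp3*, the heart and muscle form, had 0 to 4 counts per library and 32 in all, and its log2 ratio to *Fabp4*, 1.12 ± 1.10 higher with isoproterenol (6 of 8 pairs, exact adjusted p = 0.0625) and different by -0.28 ± 1.31 between plasmids (exact adjusted p = 0.602), rests on these few counts.

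**Figure D3:**
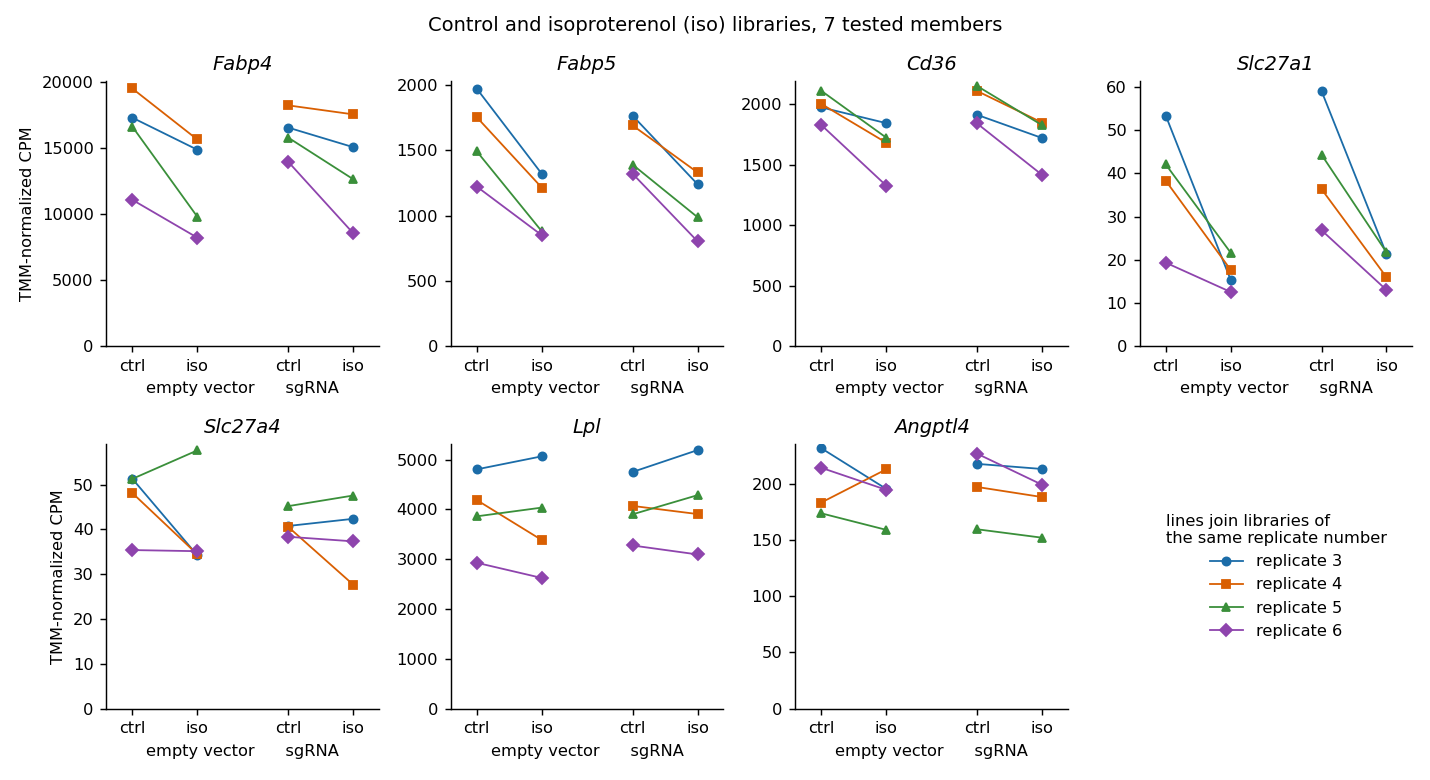
CPM of each tested member in control (ctrl) and stimulated (iso) libraries, by plasmid, with a line joining libraries of the same replicate number. The lines of *Slc27a1*, *Fabp5*, *Fabp4* and *Cd36* go down in 8 of 8 pairs, and those of *Lpl* go down in 4 and up in 4.

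Of the uptake proteins, *Slc27a1* (chr8:71568882-71587302, plus strand) had the largest fitted change of the 7 tested members. With the empty vector it had 53.4, 38.3, 42.1 and 19.3 CPM in replicates 3, 4, 5 and 6 of the control cells and 15.3, 17.7, 21.6 and 12.5 CPM in the stimulated cells. The ranges overlapped only through the control library of replicate 6, whose 19.3 CPM lay below the highest stimulated library. With the sgRNA plasmids it had 59.0, 36.3, 44.3 and 26.8 CPM in control cells and 21.3, 15.96, 21.7 and 13.0 CPM in stimulated cells, and these ranges did not overlap. Averaged over plasmids *Slc27a1* fell by 1.205 on the log2 scale (SE 0.204, 95% interval -1.64 to -0.77, 2.31-fold, edgeR adjusted p = 0.00256). It was lower in 8 of 8 pairs, with paired log2 differences between -1.80 and -0.62. The call was kept in 19 of 20 runs that left out a library or a replicate number and lost without replicate 3, where *Slc27a1* fell by 1.02 (adjusted p = 0.0577). With the block it fell by 1.16 (adjusted p = 6.03e-07).

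*Cd36* (chr5:17781690-17888801, minus strand) moved less and varied less. It had 1973, 2002, 2110 and 1828 CPM in replicates 3, 4, 5 and 6 of the control cells with the empty vector and 1843, 1682, 1723 and 1327 CPM in the stimulated cells. With the sgRNA plasmids it had 1911, 2108, 2149 and 1840 CPM in control cells and 1720, 1848, 1826 and 1415 CPM in stimulated cells. Within each plasmid the ranges overlapped only where the lowest control library, replicate 6, met the highest stimulated library. The fitted log2 fold change was -0.25 (SE 0.0891, 95% interval -0.44 to -0.06), negative in 8 of 8 pairs, and did not pass the test (edgeR adjusted p = 0.134; -0.26 and 0.00274 with the block, under the size bound). *Slc27a4* (chr2:29802634-29817522, plus strand) lay between 35.4 and 51.3 CPM in control and between 34.3 and 57.6 CPM in stimulated empty vector libraries, and between 38.4 and 45.2 and between 27.7 and 47.6 CPM with the sgRNA plasmids. Its log2 fold change was -0.15 (95% interval -0.43 to 0.13, adjusted p = 0.619), with 5 of 8 pairs lower. The difference in response between *Slc27a1* and *Slc27a4* was not tested.

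The upstream sequences of the uptake genes are shown because *Slc27a1* was called and its relative *Slc27a4* and *Cd36* were not. They are the 250 bases before a RefSeq start of each gene (the first of the 3 listed for *Slc27a1*), 5′ to 3′ on the gene's strand (GRCm38.p6), at chr8:71568621-71568870 for *Slc27a1*, chr2:29802384-29802633 for *Slc27a4* and chr5:17835897-17836146 for *Cd36*. The *Cd36* window precedes the single start that the RefSeq table lists and lies inside the longer span given for the gene by GENCODE, so it is not the sequence before the outermost GENCODE start. Of the 10 members, 5 had an entry (also *Fabp3* and *Vldlr*).
Slc27a1: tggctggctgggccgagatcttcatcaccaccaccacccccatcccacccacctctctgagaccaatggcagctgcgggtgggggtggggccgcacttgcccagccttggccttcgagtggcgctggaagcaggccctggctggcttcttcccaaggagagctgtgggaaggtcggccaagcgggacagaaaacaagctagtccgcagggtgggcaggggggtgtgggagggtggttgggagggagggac
Slc27a4: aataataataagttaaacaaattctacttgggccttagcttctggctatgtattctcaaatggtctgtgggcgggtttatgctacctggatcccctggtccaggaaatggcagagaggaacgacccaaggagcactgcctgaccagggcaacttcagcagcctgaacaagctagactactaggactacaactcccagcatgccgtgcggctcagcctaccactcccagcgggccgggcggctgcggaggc
Cd36: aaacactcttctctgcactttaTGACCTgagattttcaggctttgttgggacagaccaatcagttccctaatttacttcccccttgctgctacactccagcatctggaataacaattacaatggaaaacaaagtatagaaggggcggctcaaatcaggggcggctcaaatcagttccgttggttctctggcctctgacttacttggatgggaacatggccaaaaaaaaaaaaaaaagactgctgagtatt
Searched on both strands were TGACGTCA, the cAMP response element, its shorter form TGACG, which lies within it, AGGTCANAGGTCA, a direct repeat that PPARγ binds with RXR, and its single copy AGGTCA, which lies within it. They occurred in 1.55%, 17.8%, 0.0335% and 14% of 32851 RefSeq upstream windows of that length. None was in the windows of *Slc27a1* or *Slc27a4*, and that of *Cd36* held 1 AGGTCA, read on the opposite strand and set in capitals. A match is a description of letters and not of binding.

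The lipase genes did not pass the test. *Lpl* (chr8:68880491-68907448, plus strand) had 4803, 4187, 3861 and 2929 CPM in replicates 3, 4, 5 and 6 of the control cells with the empty vector and 5064, 3386, 4036 and 2625 CPM in the stimulated cells. With the sgRNA plasmids it had 4751, 4069, 3901 and 3276 CPM in control cells and 5189, 3906, 4285 and 3096 CPM in stimulated cells. In both plasmids replicates 3 and 5 were higher after stimulation and replicates 4 and 6 lower. The log2 fold change was -0.01 (95% interval -0.33 to 0.31, edgeR adjusted p = 0.985), and leaving out 1 library or replicate number moved it between -0.10 and 0.05. *Angptl4* (chr17:33773750-33781830, minus strand) lay between 152 and 231 CPM over the 16 libraries, with a log2 fold change of -0.08 (95% interval -0.29 to 0.13, adjusted p = 0.738) and 7 of 8 pairs lower. The log2 ratio of the inhibitor to the lipase differed by -0.06 ± 0.258 with isoproterenol (exact adjusted p = 0.602) and by -0.10 ± 0.166 between plasmids (exact adjusted p = 0.223). *Gpihbp1*, an endothelial gene, had 4 counts in all, 0 in each stimulated library, where a count of 0 allows up to 3. The 8 endothelial markers together reached 2.09 to 3.74 CPM, with *Emcn* at 0 in all libraries.

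*Vldlr*, a receptor for triglyceride-rich lipoproteins, had 87 counts in all. Replicate 5 held 57 of them, with 7, 10, 20 and 20 counts in its empty vector control, empty vector stimulated, sgRNA control and sgRNA stimulated libraries. The libraries of the other replicates had 0 to 8 counts, and replicate 4 had 1 count in its 4 libraries together. Replicate 5 was the highest in each of the 4 groups.

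Other levels moved with the members that fell, and their part in the result was not tested. Of 6 adipocyte markers 3 were called lower with isoproterenol, the adipokine *Adipoq* at -1.06 on the log2 scale (adjusted p = 0.00222), the lipase *Lipe* at -0.69 (0.0139) and the lipid droplet protein *Cidec* at -0.54 (0.0299), and *Pparg* was not (-0.06, 0.743). With the replicate block 5 of 6 were called lower, *Plin1* (-0.57, 2.17e-04) and *Cebpa* (-0.72, 2.36e-04) being the additions. Summed, these 6 genes ranged from 2396 to 4047 CPM in control and from 1659 to 2576 CPM in stimulated empty vector libraries, and from 2841 to 4120 and from 1771 to 2655 CPM with the sgRNA plasmids. Of the 5 tested brown adipocyte markers *Ucp1* (4.03) and *Ppargc1a* (0.71) were called higher, and with the block also *Cidea* (1.203, adjusted p = 7.46e-04). None of 4 tested preadipocyte markers was called without the block and *Ly6a* was called higher with it (1.09, 4.92e-06). With the block *Pdgfra* (0.30), *Pdgfrb* (0.04) and *Pi16* (-0.22) were not called. The preadipocyte list summed to 8.53 to 73.7 CPM in control and 16.3 to 94.8 CPM in stimulated libraries. Within that sum *Ly6a* reached 81.8 CPM, and *Pdgfrb*, *Pdgfra* and *Pi16* at most 10.4, 4.31 and 1.43 CPM. The macrophage list summed to between 9.06 and 17.6 CPM in control and between 17.5 and 28.1 CPM in stimulated libraries, and its 2 tested genes *Cd68* (0.91) and *Cd14* (0.82) were called higher, while its defining markers *Ptprc* and *Adgre1* had 6 counts and 1 count in all. The skeletal muscle list reached at most 4.71 CPM, with *Myod1* and *Myf5* at 0. The share of the ribosomal RNA gene was higher in the stimulated library in 6 of 8 pairs. In bulk RNA, fewer cells of a type and less RNA per cell cannot be told apart.

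Replicate 6 was low in several members, whether or not they fell with isoproterenol. Its mean over 4 libraries was lowest of the 4 replicate numbers for *Fabp4* (10454 CPM), *Fabp5* (1049), *Cd36* (1602), *Slc27a1* (17.9) and *Lpl* (2981). For *Slc27a4* it was lowest by little, at 36.6 CPM against 37.7 CPM in replicate 4. The adipocyte markers *Adipoq* (427 CPM) and *Plin1* (192) were also lowest in replicate 6. The preadipocyte marker *Pdgfrb* was highest there, at 8.73 CPM against 1.75 to 3.84 CPM in replicates 3, 4 and 5. Other markers stood less apart, *Pdgfra* at 3.35 CPM against 1.98 to 2.93 CPM and *Pparg* at 124 CPM against 129 to 147 CPM. *Ucp1* was lowest in replicate 4 (2.78 CPM) and had 3.79 CPM in replicate 6. *Angptl4* was lowest in replicate 5 (161 CPM).

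Within each plasmid alone, the estimates were similar in size and fewer genes passed. In the empty vector cells *Slc27a1* differed by -1.196 (95% interval -1.81 to -0.58, edgeR adjusted p = 0.0755) and *Fabp5* by -0.59 (-1.01 to -0.17, 0.247), in the sgRNA cells *Slc27a1* by -1.21 (-1.82 to -0.61, 0.0720) and *Fabp5* by -0.50 (-0.92 to -0.08, 0.443). No member was called in either, where 0.829% and 0.7% of all genes were called, although 2 of 7 members had an unadjusted p under 0.05 in each (10.1% and 8.46% of all genes). DESeq2 called 1 member, *Slc27a1*, in each plasmid, where it called 0.64% and 0.505% of the 34821 genes it fitted. These are all genes with a count, and some, such as *Fabp3*, got no adjusted p, so the shares are not comparable with those of edgeR. In number DESeq2 called 223 and 176 genes, and edgeR 109 and 92. With the replicate block 4.47% and 3.9% of all genes were called and the members *Slc27a1* (adjusted p = 9.11e-05 and 3.79e-05) and *Fabp5* (9.29e-05 and 3.83e-04) were called with both plasmids. Without the block *Slc27a1* passed in the empty vector cells once replicate 6 (adjusted p = 0.0151) or its empty vector control library (0.0119) was left out, and in the sgRNA cells without replicate 6 (0.0168), its empty vector control library (0.0248) or its sgRNA control library (0.0428).

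The response to isoproterenol did not differ detectably between the plasmids. The interaction, the response in sgRNA cells minus that in empty vector cells, was -0.02 for *Slc27a1* (95% interval -0.88 to 0.84), 0.09 for *Fabp5* (-0.50 to 0.69), 0.15 for *Fabp4* (-0.61 to 0.90), 0.03 for *Cd36* (-0.34 to 0.41), 0.12 for *Slc27a4* (-0.44 to 0.67), 0.11 for *Lpl* (-0.54 to 0.75) and -0.02 for *Angptl4* (-0.43 to 0.40). In edgeR's test 0 of 7 members and 0% of all genes were called, and 0 of the 7 and 52 of all genes had an unadjusted p under 0.05 (DESeq2 also called 0). With the block, where 0 members were called as well, the intervals were -0.14 to 0.31 for *Fabp5* and -0.48 to 0.36 for *Slc27a1*.

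The sgRNA plasmids moved no member past the test. In the unstimulated cells *Fabp4* had 16127 ± 3583 CPM with the empty vector and 16133 ± 1768 CPM with the sgRNA plasmids (mean ± SD, n = 4), *Lpl* 3945 ± 782 and 3999 ± 606 CPM, *Cd36* 1978 ± 116 and 2002 ± 150 CPM, and *Fabp5* 1611 ± 325 and 1543 ± 219 CPM. *Angptl4* had 200.5 ± 26.8 and 200.1 ± 29.8 CPM, *Slc27a4* 46.5 ± 7.57 and 41.2 ± 2.86 CPM, and *Slc27a1* 38.3 ± 14.2 and 41.6 ± 13.6 CPM. Each of these differences was smaller than the larger SD of the pair. Averaged over treatments the log2 fold changes of the 7 members ran from -0.12 for *Slc27a4* (95% interval -0.39 to 0.16) to 0.11 for *Slc27a1* (-0.32 to 0.54), with an edgeR adjusted p of 0.9997 for each. None was called in edgeR with or without the block or in DESeq2, and 0 of 7 had an unadjusted p under 0.05. Of all genes 0% were called without the block, averaged or in control or stimulated cells alone, while 437 had an unadjusted p under 0.05 and DESeq2 called 10 of 34821 (0.0287%) in the average, and 0.266%, 0.0304% and 0.122% were called with the block. In edgeR without the block the targeted *Gm15551*, higher with the sgRNA plasmids in 8 of 8 pairs, was thus not called either. A missing call in that fit therefore does not show that a gene was unchanged.

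Of 47 other genes of the same routes, 32 could be tested, and with isoproterenol 4 were called lower and 1 higher (median log2 fold change -0.15 over the 32), where 2.65% of all genes were called. These genes, like the members, were chosen with earlier results of these data known. Their share called, with or without the block, is therefore no test against all genes. Among the uptake genes *Cav1*, the main protein of caveolae, fell from 407 ± 20.6 to 252 ± 24.8 CPM with the empty vector and from 426 ± 39.6 to 285 ± 23.1 CPM with the sgRNA plasmids (log2 fold change -0.64, edgeR adjusted p = 5.26e-05). Of the acyl-CoA synthetases, which trap fatty acids in the cell, *Acsl1* fell from 2473 ± 452 to 1531 ± 264 CPM with the empty vector (-0.63, 0.00992) and *Acsl4* rose from 59.4 ± 10.8 to 100.7 ± 15.8 CPM (0.71, 0.000611). With the sgRNA plasmids *Acsl1* had 2425 ± 423 CPM in control and 1626 ± 303 CPM in stimulated cells, and *Acsl4* 62.8 ± 9.06 and 99.03 ± 7.499 CPM. *Apoc3*, which encodes an apolipoprotein that restrains lipoprotein lipase, fell from 14.8 ± 5.41 to 6.16 ± 0.711 CPM with the empty vector and from 18.0 ± 4.65 to 8.64 ± 1.08 CPM with the sgRNA plasmids (-1.16, 0.000611). The receptor for high-density lipoprotein *Scarb1* fell from 213 ± 21.2 to 145 ± 17.6 CPM with the empty vector and from 206 ± 23.8 to 134 ± 13.2 CPM with the sgRNA plasmids (-0.59, 0.000571). The log2 fold changes and p-values of these genes are averaged over both plasmids. Each of these 5 genes moved the same way in 8 of 8 pairs.

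With the replicate block 8 of the 32 were called, 6 lower and 2 higher, where 5.7% of all genes were called. The additions were the caveolar coat protein *Cavin1* (-0.55, edgeR adjusted p = 0.00119 with and 0.0691 without the block), the endocytic receptor *Lrp1* (0.60, 0.00120 against 0.237) and the apolipoprotein *Apoe* (-0.64, 0.0299 against 0.274), which did not exceed 7.71 CPM in any library. In edgeR fits without the block, the call of *Acsl1* was lost without replicate 3 (-0.59, adjusted p = 0.116) or replicate 4 (-0.58, 0.153). In such fits *Cavin1* passed without the empty vector control library of replicate 6 (-0.65, 0.0247). It also passed without the empty vector stimulated library of replicate 4 (-0.66, 0.0368). With all libraries and no block, *Cavin1* passed without a filter on low counts (-0.59, 0.0217) and in the DESeq2 Wald test (-0.56, 0.0212). The sgRNA plasmids gave 0 calls among the 32 in edgeR, with or without the block, and in DESeq2. An unadjusted p under 0.05 was found for 5 of the 32 without the block (3.32% of all genes), for 10 with it (11.5% of all genes) and for 4 of 45 fitted in DESeq2 (1.64% of all genes).

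**Figure D4:**
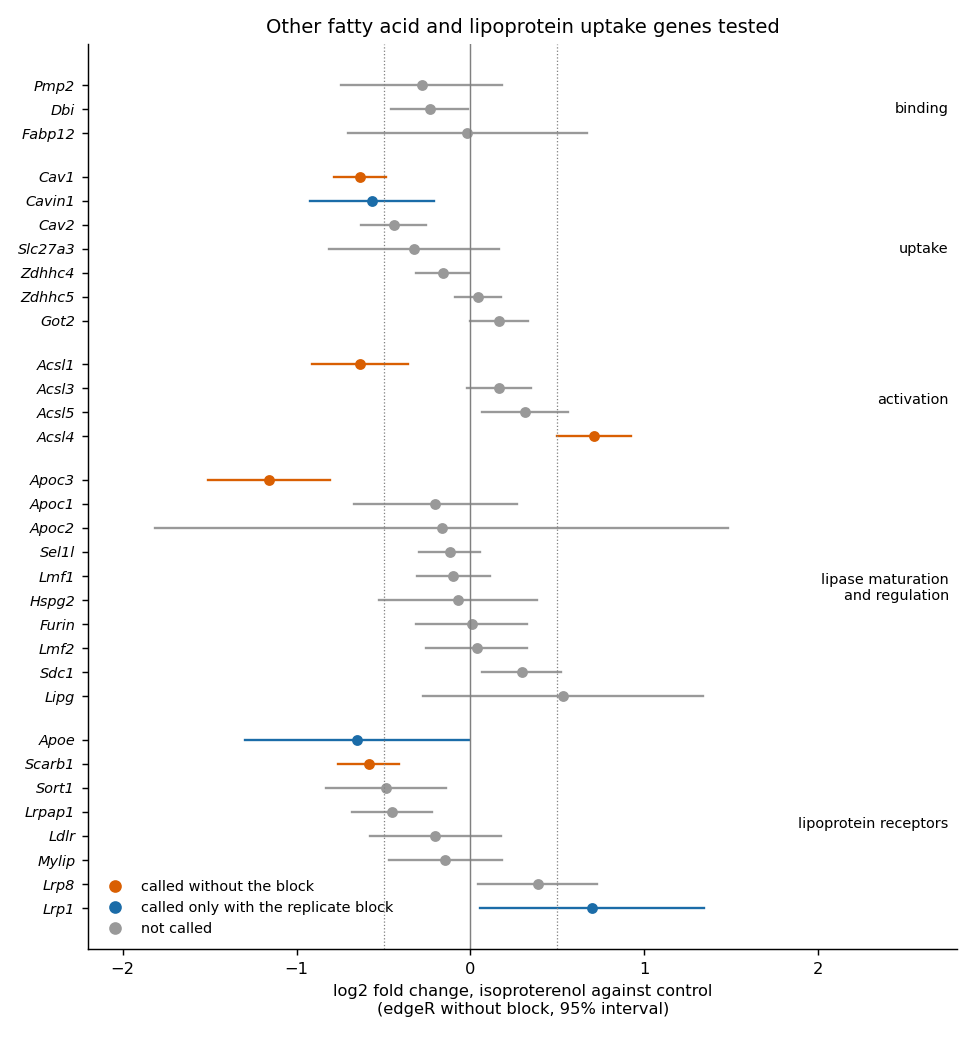
Fitted log2 fold changes with isoproterenol of the 32 other tested genes of fatty acid and lipoprotein uptake, by role, with 95% intervals from the fit without the block. *Cav1*, *Acsl1*, *Apoc3* and *Scarb1* lie below 0 and *Acsl4* above it past the test.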

How the data were processed

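Polyadenylated RNA of 16 samples was sequenced in paired ends. Per the labels and the study's methods, the authors demultiplexed reads with bcl2fastq, filtered them with cutadapt and ran Salmon against the GENCODE M22 transcriptome of GRCm38, alone or joined with RNAcentral; which of these, tool versions and strand use were not stated. The authors deposited estimated counts per gene as whole numbers, unfiltered and not normalized, so rounding changed nothing. All sample columns were used.

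Counts were filtered with filterByExpr (minimum count 10, minimum total 15), scaled by TMM, fitted with 4 group means over all 16 libraries and tested two-sided with glmQLFTest in edgeR 4.0.16 (R 4.3.3), with Benjamini-Hochberg adjustment. CPM are counts per 1e+06 of the TMM-scaled library size, divided by the length of the longest principal transcript where given per kb, and intervals cover 95%. Ratios used a pseudocount of 0.5. Alternatives were DESeq2 1.42.0, its size factors, no filter, no ribosomal RNA gene, a pseudocount of 1, the replicate block and leaving out libraries or replicate numbers.

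Deviations from group means correlated at 0.224 to 0.613 (median 0.410) in all 24 pairs of libraries with the same replicate number and at -0.512 to 0.516 (median -0.215) in 72 pairs that differed in number and group, so the numbers were taken to pair the libraries; the labels do not say what a number shares. A count of 0 allows up to 3 counts, for counting error only, since reads that carry no molecular identifier are not separate molecules. The members, the other genes of the pathway and the markers were chosen with earlier results of these data known. Named were all members and those other pathway genes that passed with or without the block.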

Additional observations from a re-analysis of the deposited data

Results flagged for a closer look

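Of 40 sets of 4 libraries (10 genes in 4 groups), 4 had a library whose gap to the nearest other exceeded 0.829 of the whole range. Chance alone marks about 1 in 20 sets of continuous values, a rate that does not hold for the sets of a few counts, where 1 count beside 0 in the others passes by construction. *Slc27a4* was 57.6 CPM (453 counts) in the stimulated empty vector library of replicate 5, while the other 3 libraries of the group lay between 34.3 and 35.2 CPM. The remaining 3 rest on 1 to 3 counts each. *Fabp3* was 0.382 CPM (3 counts) in the stimulated empty vector library of replicate 5 and 0.152 CPM (2 counts) in the sgRNA control library of replicate 6. *Gpihbp1* was 0.130 CPM (1 count) in the empty vector control library of replicate 5, with 0 in the other 3.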

How the results depend on the processing

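Averaged over plasmids, *Slc27a1* and *Fabp5* were called lower with isoproterenol under each alternative that kept all libraries, and 0 to 2 members were called when 1 library or replicate number was left out without the replicate block (2 in all 20 such runs with it, an alternative added after the data were seen). In the empty vector and in the sgRNA cells alone, the count of 0 members rose to 2 with the replicate block and to 1 each without a filter on low counts and with DESeq2, and was 0 to 1 when libraries were left out. Other pathway genes called with isoproterenol numbered 5 in the main fit, 8 with the replicate block, 7 without a filter and 6 with DESeq2. They numbered 4 to 7 when 1 library or replicate number was left out without the block. The paired difference in the *Fabp5* to *Fabp4* ratio of -0.19 lost its call with no replicate block (adjusted p = 0.174), with the differences averaged within each replicate number (0.375, where no p could pass; chosen after seeing the data) and in 18 of 20 runs with pairs left out (-0.24 to -0.13), where fewer pairs raise the smallest p the test can give; between plasmids it gained one without either unstimulated library of replicate 4 (range -0.133 to -0.0704). The replicate block changed no other call of a member.

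The following values changed sign. Without a filter the sgRNA effect became 0.0120 for *Fabp5* and 0.0184 for *Angptl4*. With libraries left out it ran from -0.0705 to 0.0464 for *Fabp5*, from -9.85e-05 to 0.0742 for *Cd36* and from -0.0461 to 0.0471 for *Angptl4*. The isoproterenol effect ran from -0.0970 to 0.0547 for *Lpl* (with the replicate block -0.0679 to 0.0273, and 0.0016 without replicate 6), in empty vector cells from -0.236 to 0.0726 for *Lpl* and from -0.174 to 0.0011 for *Angptl4*, and in sgRNA cells from -0.212 to 0.0366 for *Slc27a4* and from -0.0882 to 0.158 for *Lpl*. The interaction ran from -0.225 to 0.201 for *Slc27a1* and from -0.0186 to 0.218 for *Fabp5*, the *Fabp3* to *Fabp4* ratio between plasmids from -0.59 to 0.13, and the *Angptl4* to *Lpl* ratio with isoproterenol from -0.16 to 0.0053. The cause was not tested. Of 1473 recomputed values, 1338 kept direction and side of the threshold (counts: their size within 1.5 times), 54 changed sign, 35 lost and 22 gained a call and 24 counts moved, and other scalings moved the median of all genes by under 0.1. Depth limits *Fabp3*, *Gpihbp1* and *Vldlr*.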
